A study of Homo sapiens with 15 samples.

Results

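The mucins and mucosal secretion genes described here are 10 of the 26475 genes in a count table of A549 cells: MUC1, MUC2, MUC5AC, MUC5B, MUC13, MUC16, MUC20, GALNT5, AGR2 and PIGR. They were chosen by name, not by a measured value. A549 is an established epithelial line from a human lung adenocarcinoma, labelled as alveolar type II like. RNA was sequenced from 15 libraries in 5 groups of 3, all at 48 h. The groups were untreated cells, cells given interleukin-4 (IL4) at 10 ng/ml, and 3 groups given the same IL4 with a further agent. These agents were Compound A, a control Smartpool siRNA, and a Smartpool siRNA against ALOX15 at 1 uM. Nothing used here states what Compound A is, its dose, or what the other cells received in place of it or of an siRNA. Separate cultures are not stated for the 3 libraries of a group, so the p-values reflect the spread among libraries, and that spread may be technical.

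Mucins are large glycoproteins that carry dense O-linked sugar chains and give mucus its body. Some are secreted and form gels (MUC2, MUC5AC and MUC5B), and others span the cell membrane (MUC1, MUC13, MUC16 and MUC20). IL4 acts through the transcription factor STAT6, and type 2 cytokines are known in airway epithelium for turning surface cells into goblet cells, which make mucus. GALNT5 is an enzyme that adds the first sugar of O-linked chains. AGR2 is a protein disulfide isomerase of the endoplasmic reticulum that gel-forming mucins need to fold. PIGR is the receptor that carries polymeric immunoglobulin across epithelium into secretions.

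Library totals ran from 6407936 to 11031246 counts. ALOX15, the targeted gene, had 0 to 2 counts in each untreated library, 36 to 44 with IL4, 12 to 22 with Compound A, 22.78 to 27 with control siRNA and 1 to 2.47 with ALOX15 siRNA, so every siRNA library matched its label. ALOX15 also fell with Compound A against IL4 (log2 change -1.23, SE 0.25, edgeR adjusted p = 0.0033). Against control siRNA with IL4 its log2 change was -0.68 (SE 0.27, edgeR adjusted p = 0.16), which was not called. The control siRNA libraries held less ALOX15 than the IL4 ones, without overlap (log2 change -0.55, edgeR adjusted p = 0.9). IL4 replicate 1 stood apart from its group on the second principal component, at 34.4 against 5.35 and -2.61, so calls that are lost or gained without it are marked. Of 8 alveolar type II markers, ABCA3 and LAMP3 passed the filter on low counts, and SFTPB had no count in any library. SCGB1A1 and CLCA1, which mark club and goblet cells, had no count either, nor had the leukocyte markers PTPRC, CD3E and MS4A1, while all 4 epithelial markers passed.

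Of the 10 genes 8 passed the filter, as did 12795 genes in all, and MUC16 and MUC20 had too few counts to be tested. Levels are given as counts per 1e6 counts (CPM), scaled for library composition. Per kilobase of the longest coding transcript, the mean level over all libraries was 777 CPM for AGR2, 24.4 for MUC5B, 20.2 for MUC5AC and 19.8 for MUC13. It was 2.03 CPM per kilobase for GALNT5, 0.827 for MUC1, 0.223 for PIGR, 0.174 for MUC20 and 0.00558 for MUC16. AGR2 stood far above every mucin in this order. The neighbours MUC5B, MUC5AC and MUC13 did not keep the same order in every group: per kilobase they had 27.3, 25.9 and 20.9 CPM in untreated cells, but 22.7, 13.3 and 17.6 CPM with Compound A. MUC2 is left out of this order because the gene models used hold only fragments of its transcript.

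**Figure D1:**
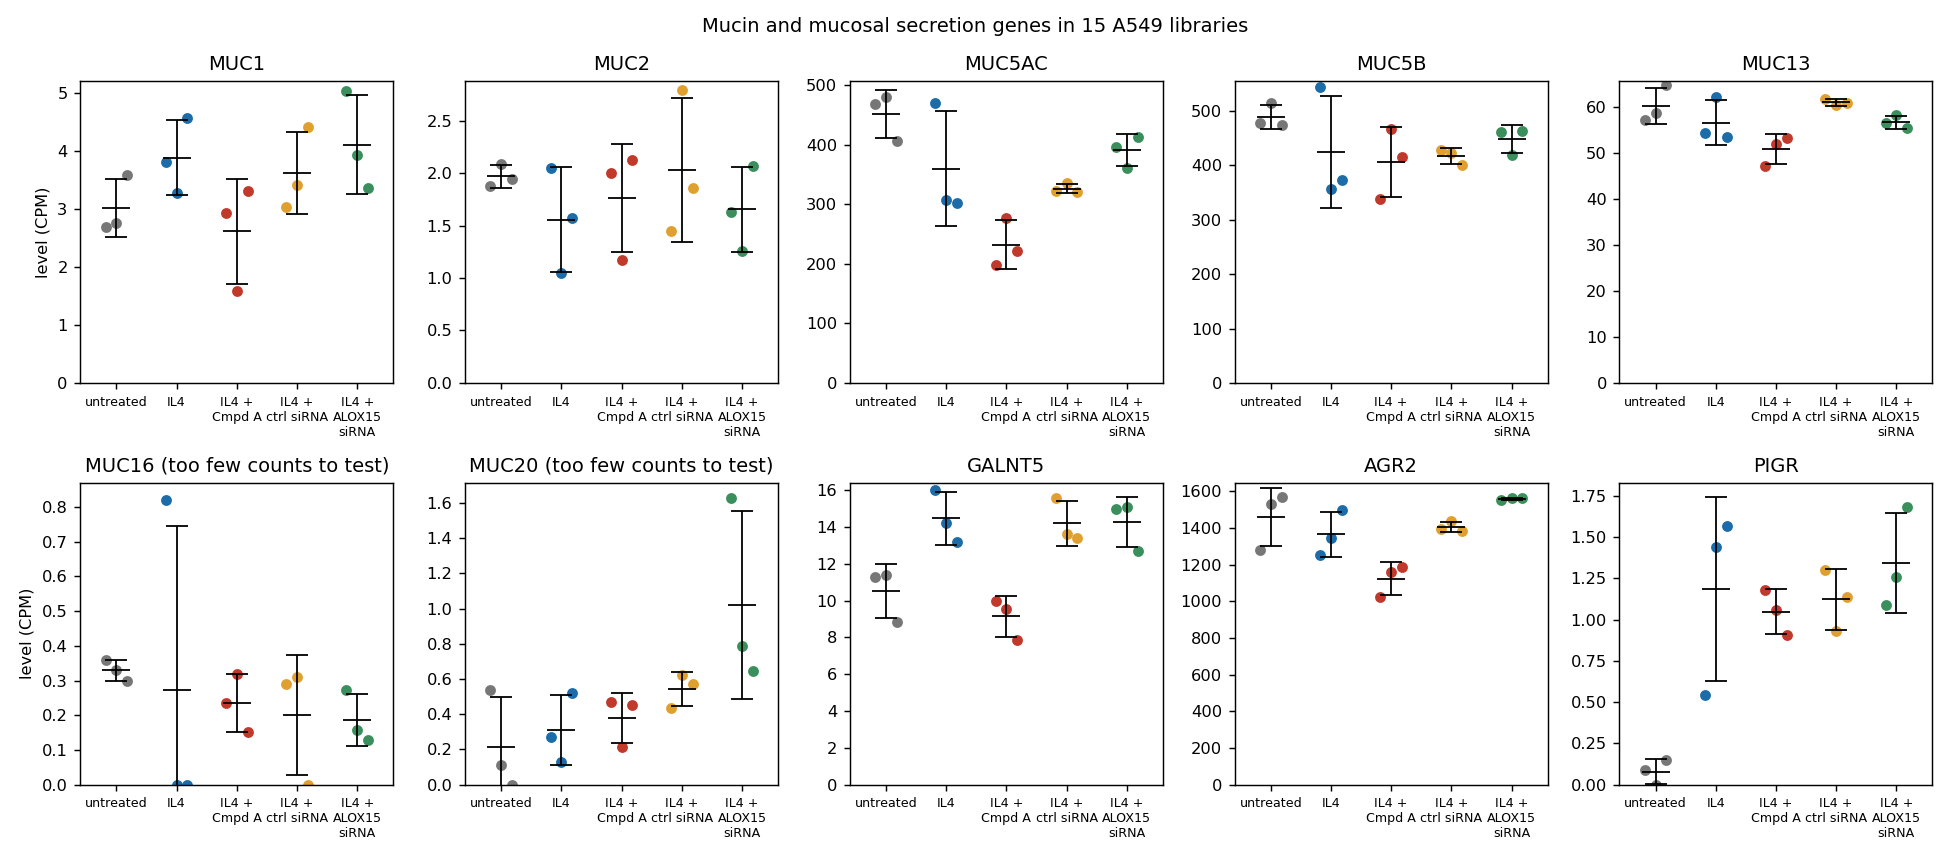
Level of each gene (y axis, CPM, starting at 0, with its own scale in each panel) in 5 groups of 3 libraries (x axis). Points are libraries in replicate order, and bars are the group mean and SD (n = 3). PIGR lies near 0 in the 3 untreated libraries and between 0.546 and 1.68 CPM in the other libraries, and MUC5AC is lowest with Compound A.

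The gel-forming mucin genes MUC2, MUC5AC and MUC5B lie side by side on chromosome 11 (GRCh38, plus strand): MUC2 from 1074875 to 1110511, MUC5AC from 1157953 to 1201138 and MUC5B from 1223066 to 1262172. MUC5AC, the gel-forming mucin that goblet cells make in allergic airways, had 469, 481 and 406 CPM in the untreated libraries and 471, 307 and 302 CPM with IL4. MUC5AC had 198, 278 and 221 CPM with Compound A, 323, 336 and 321 CPM with control siRNA, and 397, 362 and 414 CPM with ALOX15 siRNA, all with IL4. The 3 Compound A libraries lay below every other library. IL4 replicate 1 lay among the untreated libraries, and the other IL4 libraries lay below all of them. By group mean the order was untreated, ALOX15 siRNA, IL4, control siRNA and Compound A, and the IL4 libraries overlapped with those of every group but Compound A.

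MUC5B, the gel-forming mucin of healthy airway secretions, had 478, 515 and 475 CPM in untreated cells and 544, 357 and 374 CPM with IL4. MUC5B had 339, 467 and 415 CPM with Compound A, 428, 422 and 401 CPM with control siRNA and 462, 419 and 464 CPM with ALOX15 siRNA. Its 5 group means lay between 407 and 490 CPM, and IL4 replicate 1 held its highest level, as it held the highest IL4 level of MUC5AC. MUC2, the gel-forming mucin of the intestine, had 207 counts over all libraries, and its group means lay between 1.55 ± 0.499 CPM (IL4) and 2.03 ± 0.688 CPM (control siRNA, SD, n = 3). In untreated replicate 3 the table gave MUC5AC 2715.93 and MUC5B 3180.07 counts, which sum to 5896, as where reads are shared between similar genes. Both had whole counts in every other library.

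The transmembrane mucins were lower in CPM. MUC13, best known from the gut surface, had mean levels of 60.2 ± 4 CPM in untreated cells, 56.6 ± 4.83 with IL4, 50.7 ± 3.27 with Compound A, 61 ± 0.691 with control siRNA and 56.6 ± 1.42 with ALOX15 siRNA (SD, n = 3). Every Compound A library held less MUC13 than any other library, but narrowly: Compound A replicate 3 had 53.3 CPM and IL4 replicate 3 had 53.4 CPM. MUC1, found on most glandular epithelia, had 391 counts over all libraries and mean levels from 2.62 ± 0.909 CPM (Compound A) to 4.11 ± 0.853 CPM (ALOX15 siRNA). These groups were the only pair for MUC1 without overlap.

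MUC16, a very large mucin of wet epithelial surfaces, had 29 counts in all and 0 to 6 in a library, so no difference between groups was detectable at this depth. Its 6 counts in the IL4 group all came from replicate 1. MUC20 had 56 counts in all: 6, 1 and 0 in the untreated libraries, 2, 1 and 4 with IL4, 4, 2 and 3 with Compound A, 3, 4 and 4 with control siRNA and 12, 5 and 5 with ALOX15 siRNA. The ratio of summed MUC20 counts, corrected for library size, was 1.9 for ALOX15 siRNA over control siRNA, with an exact 95% interval of 0.883 to 4.34. That interval includes no change, while the ratio over untreated cells was 3.95 (1.63 to 10.9). Both intervals allow for counting error alone, not for the spread between libraries, and 12 of the 22 counts with ALOX15 siRNA came from replicate 1.

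GALNT5 had 11.3, 11.4 and 8.82 CPM in untreated cells, 16, 14.2 and 13.2 CPM with IL4 and 10, 9.56 and 7.86 CPM with Compound A. GALNT5 had 15.6, 13.6 and 13.4 CPM with control siRNA and 15, 15.1 and 12.7 CPM with ALOX15 siRNA. The untreated and Compound A libraries overlapped, and all of them lay below every library of the other 3 groups. AGR2 had 1277, 1532 and 1566 CPM in untreated cells, 1254, 1344 and 1495 CPM with IL4 and 1023, 1161 and 1187 CPM with Compound A. AGR2 had 1393, 1437 and 1382 CPM with control siRNA and 1552, 1563 and 1560 CPM with ALOX15 siRNA. As for MUC5AC and MUC13, the Compound A libraries held the lowest levels of all. How many of all genes share that order was not counted.

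PIGR was counted 1, 0 and 1 times in the untreated libraries, 4, 11 and 12 times with IL4, 10, 10 and 6 times with Compound A, 9, 6 and 8 times with control siRNA and 8, 8 and 13 times with ALOX15 siRNA. Each of the 12 libraries with IL4 thus held more PIGR counts than any untreated one, although the gene stayed at or below 1.68 CPM. PIGR passed the filter through 3 libraries, all of them with IL4, so it could be tested only because it was high there. A fit without the filter is therefore given beside its tests.

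The promoters of PIGR and AGR2 are shown because these genes were called with IL4 and with Compound A respectively. RefSeq's table (GRCh38.p14) held promoters of MUC1, MUC2, MUC13, MUC16, AGR2 and PIGR. Each sequence is the 250 bases before the start that RefSeq's table gives, 5′ to 3′ on the minus strand, at chr1:206946467-206946716 for PIGR and chr7:16805000-16805249 for AGR2, with capitals for E-box matches (CANNTG, which reads as a match on both strands). The AGR2 window lies inside the longer GENCODE gene, which starts at 16833433 on the minus strand.
PIGR: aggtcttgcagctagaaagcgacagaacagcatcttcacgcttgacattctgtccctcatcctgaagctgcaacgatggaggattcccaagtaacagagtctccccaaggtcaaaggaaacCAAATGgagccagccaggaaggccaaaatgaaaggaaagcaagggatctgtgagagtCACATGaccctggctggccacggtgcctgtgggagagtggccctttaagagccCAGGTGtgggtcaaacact
AGR2: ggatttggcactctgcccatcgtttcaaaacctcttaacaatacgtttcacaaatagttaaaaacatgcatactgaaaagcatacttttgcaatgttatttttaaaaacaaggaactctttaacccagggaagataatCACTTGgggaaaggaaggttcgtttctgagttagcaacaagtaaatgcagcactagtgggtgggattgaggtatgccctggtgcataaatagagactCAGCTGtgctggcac
PIGR held E-box letters at -129, -72 and -19 and AGR2 at -112 and -15, counted to the first base from the RefSeq start. Such letters occur in 61.8% of 35116 promoters of this length, so they set neither gene apart. Neither window held the STAT letters TTCNNNGAA (6.57% of promoters) or TTCNNNNGAA (5.38%), the forkhead letters TGTTTAC (2.98%) or the TATA letters TATAAA (10.7%) on either strand. A match describes letters only, and a missing match says only that they are not in these windows.

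PIGR and GALNT5 rose with IL4, and none of the other 6 tested genes passed the test. With edgeR's quasi-likelihood test and an adjusted p under 0.05, 2 of 8 genes were called in IL4 against untreated, beside 22.9% of all genes tested (11.2% higher and 11.6% lower), so the share was close to that of all genes. Without PIGR, which the filter let in through its IL4 levels, it was 1 of 7. PIGR rose from 2 summed counts to 27, a ratio of 16.1 with an exact 95% interval of 4.04 to 139. That interval allows for counting error alone, not for the spread between libraries. The edgeR log2 change of PIGR was 3.74 (95% interval 2.38 to 5.10, adjusted p = 2.5e-04). Without the filter its adjusted p was 1.3e-04. It was called in 22 other settings, and in the fit of the compared groups alone it had too few counts to be tested. In bulk RNA, a change in the number of cells that make a transcript and a change in its amount per cell cannot be told apart.

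GALNT5 rose 1.36-fold with IL4, from 10.5 ± 1.45 to 14.4 ± 1.41 CPM (SD, n = 3, log2 change 0.44, SE 0.14, edgeR adjusted p = 0.022), with no overlap between the groups. That call was lost without IL4 replicate 1 (log2 change 0.36, adjusted p = 0.084), when untreated replicate 3 was left out (0.37, adjusted p = 0.084) and in a fit of these groups alone (0.47, adjusted p = 0.075). MUC5AC did not pass, with a log2 change of -0.33 (95% interval -0.67 to 0.02, adjusted p = 0.16), and nor did MUC5B, with -0.20 (-0.51 to 0.10, adjusted p = 0.33). Without IL4 replicate 1 both passed, MUC5AC at -0.57 (adjusted p = 0.007) and MUC5B at -0.42 (adjusted p = 0.0099). No setting placed either of these mucins higher with IL4 than in untreated cells. The log2 changes of AGR2 (-0.10, interval -0.25 to 0.06) and MUC13 (-0.08, interval -0.24 to 0.07) were small, and those of MUC1 (0.39, interval -0.15 to 0.93) and MUC2 (-0.34, interval -1.03 to 0.34) were wide.

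The same 2 genes rose where IL4 was given with control siRNA. Against the untreated libraries, which both comparisons share, 2 of 8 genes were called, both higher, beside 19.3% of all genes (9.93% higher). PIGR had a ratio of 15.2 (exact 95% interval 3.76 to 133, for counting error alone). Its edgeR log2 change was 3.66 (95% interval 2.26 to 5.06, adjusted p = 4.1e-04, or 2.5e-04 without the filter). GALNT5 had a log2 change of 0.42 (SE 0.14, edgeR adjusted p = 0.035). The GALNT5 call was lost with DESeq2 (adjusted p = 0.058), without untreated replicate 3 (0.12) and without control siRNA replicate 1 (0.14) or 2 (0.061). MUC5AC had a log2 change of -0.47 (95% interval -0.82 to -0.12, adjusted p = 0.058), with no overlap between the groups. It passed in a fit of these groups alone (adjusted p = 5.5e-06), without IL4 replicate 1 (0.0088) and without Compound A replicate 2 (0.043).

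Control siRNA with IL4 against IL4 alone, a check on the siRNA itself, gave no called gene among the 8 and 0% of all genes. None of the 8 had an unadjusted p under 0.05 and DESeq2 called none of them, while over all genes 628 had an unadjusted p under 0.05 and DESeq2 called 2. The log2 changes of these genes lay between -0.14 (MUC5AC) and 0.38 (MUC2).

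**Figure D2:**
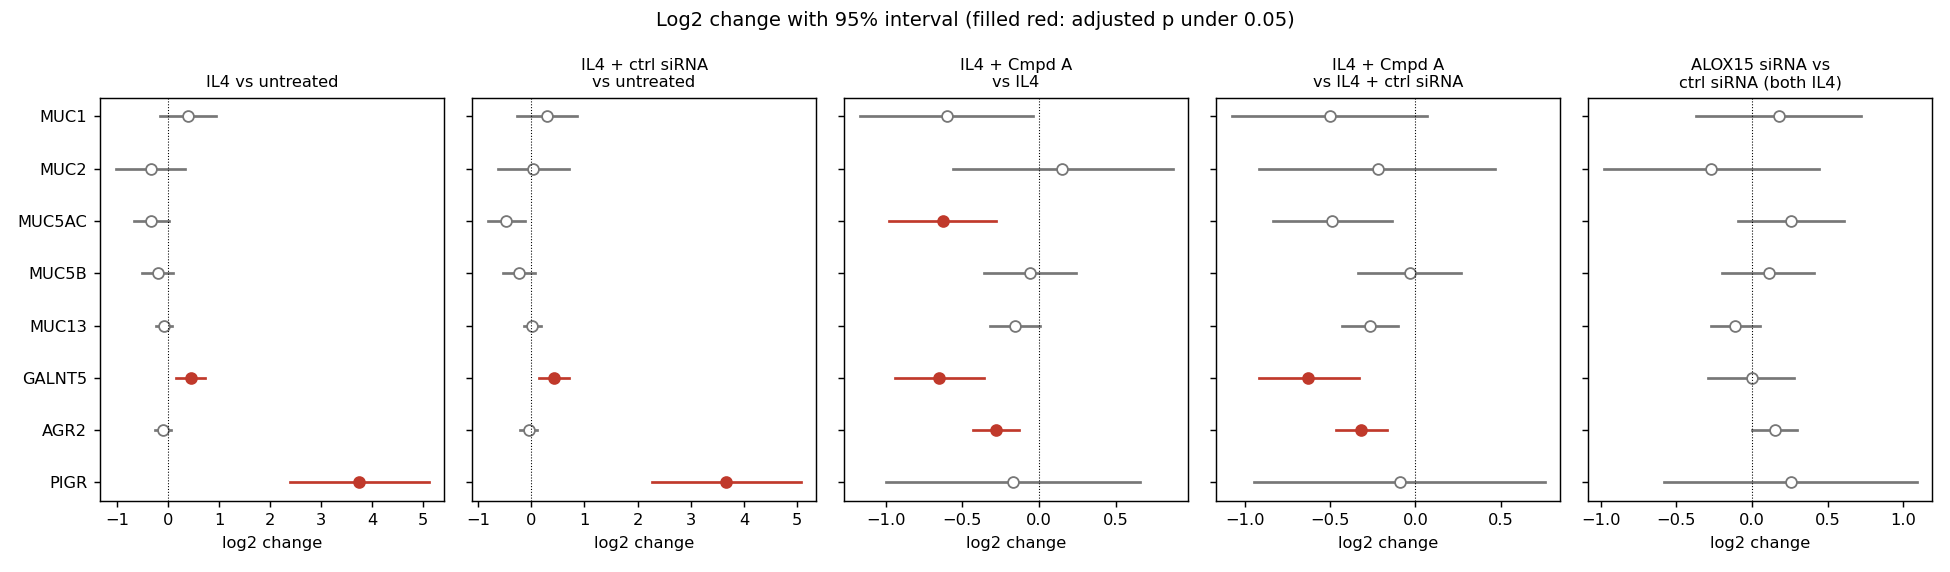
Log2 change with its 95% interval (x axis, with its own range in each panel) of the 8 tested genes (y axis) in 5 comparisons. Filled red marks an edgeR adjusted p under 0.05. PIGR and GALNT5 are filled and to the right of 0 in both comparisons with untreated cells, and AGR2 and GALNT5 are filled and to the left of 0 in both comparisons of Compound A.

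Compound A with IL4, set against IL4 alone, came with lower GALNT5, MUC5AC and AGR2. These were 3 of 8 tested genes, all lower, beside 14.4% of all genes called in either direction and 8.07% lower. GALNT5 fell by 0.65 on the log2 scale (SE 0.14, edgeR adjusted p = 0.0046), to 9.14 ± 1.13 CPM (SD, n = 3), and was called in each of the 23 other settings. AGR2 fell by 0.28 (SE 0.07, adjusted p = 0.015), from 1364 ± 121 to 1124 ± 87.8 CPM. Its call was lost without Compound A replicate 1 (-0.22, adjusted p = 0.067) and in a fit of these groups alone (adjusted p = 0.084).

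MUC5AC fell 1.55-fold with Compound A, from 360 ± 96.1 to 232 ± 41 CPM (SD, n = 3, log2 change -0.63, SE 0.16, edgeR adjusted p = 0.023). This call rested on single libraries: it was lost without IL4 replicate 1 (-0.39, adjusted p = 0.085), without Compound A replicate 1 (-0.53, adjusted p = 0.073) or 3 (-0.60, adjusted p = 0.08), and in a fit of these groups alone (adjusted p = 0.074). MUC5B did not pass, with -0.06 (95% interval -0.36 to 0.24, adjusted p = 0.8), nor did MUC13 with -0.16 (-0.32 to 0.003, adjusted p = 0.17) or MUC1 with -0.60 (-1.17 to -0.04, adjusted p = 0.13). PIGR, which of the 8 had the highest fold with IL4, had a log2 change of -0.17 with Compound A (SE 0.40).

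Set against control siRNA with IL4, a comparison that does not use the IL4 libraries but shares the Compound A ones, 2 of 8 genes were called, both lower, beside 5.28% of all genes (3.42% lower). GALNT5 fell by 0.63 (SE 0.14, edgeR adjusted p = 0.013) and AGR2 by 0.32 (SE 0.07, adjusted p = 0.014). The GALNT5 call was lost without Compound A replicate 2 (adjusted p = 0.0521) or 3 (0.078) or control siRNA replicate 1 (0.082), and the AGR2 call without Compound A replicate 1 (0.067) or control siRNA replicate 2 (0.063). MUC13, at -0.27 (95% interval -0.43 to -0.10), had an adjusted p of 0.0502 and passed in 8 of 23 other settings. MUC5AC, at -0.49 (interval -0.84 to -0.14), had an adjusted p of 0.11 and passed only without IL4 replicate 1 (0.018), a library that enters this comparison through the shared estimate of the spread.

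MUC5AC and MUC5B can also be set against each other within a library, which removes library size. MUC5AC counts per MUC5B count were 0.981, 0.934 and 0.854 in untreated cells, 0.867, 0.859 and 0.808 with IL4, 0.585, 0.595 and 0.532 with Compound A, 0.754, 0.796 and 0.800 with control siRNA and 0.859, 0.863 and 0.892 with ALOX15 siRNA. The ratio thus lay close to its group mean in IL4 replicate 1, which stood apart in the levels of both genes. Between Compound A and IL4 it differed by -0.57 on the log2 scale, and by -0.60 to -0.52 with any 1 library of these groups left out. An exact two-sided permutation test gave p = 0.1, the smallest that 3 against 3 libraries allow, and 0.12 after adjustment over 6 comparisons. This ratio was chosen after its values were seen.

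**Figure D3:**
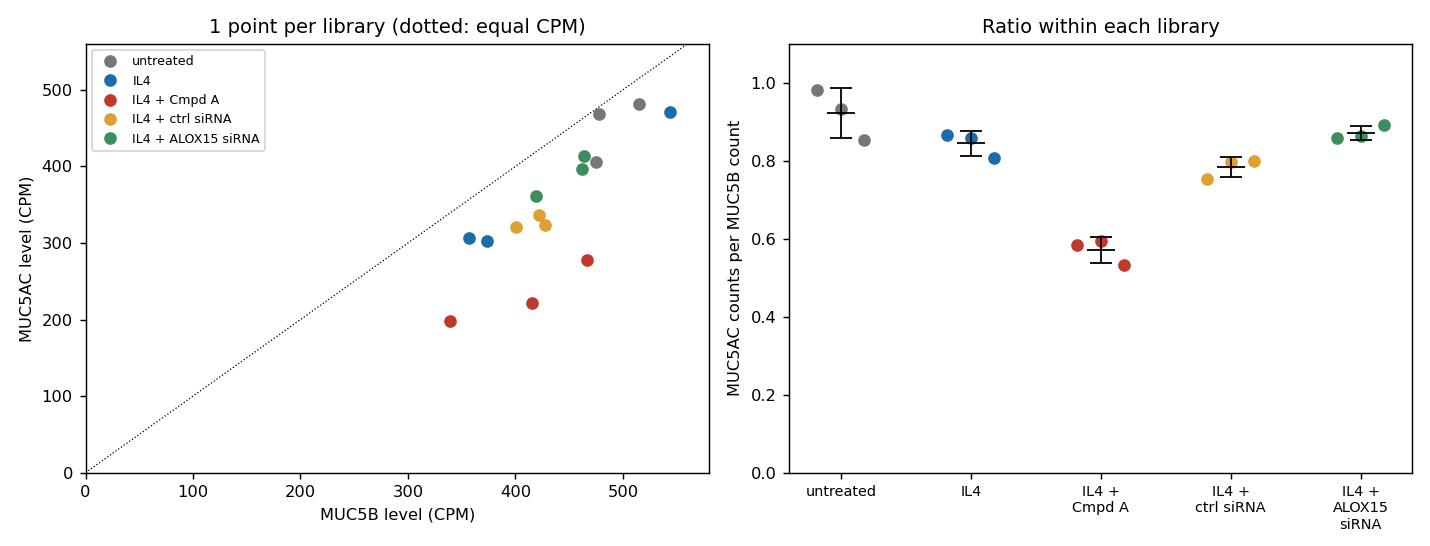
Left, MUC5AC level (y axis, CPM) against MUC5B level (x axis, CPM), with 1 point per library, coloured by group, and a dotted line at equal CPM. Right, MUC5AC counts per MUC5B count in each library (y axis) by group (x axis), with the group mean and SD (n = 3). The Compound A libraries have ratios of 0.532 to 0.595, below all others, which lie between 0.754 and 0.981.

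ALOX15 siRNA with IL4 against control siRNA with IL4 asks what the loss of ALOX15 transcript did under IL4. None of the 8 tested genes was called by edgeR, beside 0.696% of all genes. None had an unadjusted p under 0.05, and DESeq2 called none. AGR2 had a log2 change of 0.15 (95% interval -0.002 to 0.30, adjusted p = 0.56) and MUC5AC one of 0.26 (-0.09 to 0.61, adjusted p = 0.72), and in both the ALOX15 siRNA libraries lay above the control siRNA ones without overlap. Both passed in a fit of these groups alone (adjusted p = 0.017 and 9.1e-04), where the spread comes from these 6 libraries only. The interval of GALNT5 (-0.29 to 0.28) excludes a change of the size seen for that gene with Compound A. For MUC13 the interval (-0.27 to 0.05) includes its own change with Compound A against IL4 (-0.16). Its lower end equals, as rounded, the MUC13 change with Compound A against control siRNA (-0.27).

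Further genes of mucin production were read from lists picked with earlier results of these data known. In the list of other mucins and mucin-like genes 4 of 14 passed the filter (MUC3A, MUC12, OVGP1 and CD164) and edgeR called none of them in any of the 6 comparisons. DESeq2 called none either, and 1 had an unadjusted p under 0.05, OVGP1 in Compound A against IL4 (log2 change -0.95). Without IL4 replicate 1, 1 of them was called higher in Compound A against control siRNA.

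Among enzymes that build the O-linked chains, 6 of 22 tested rose with IL4 and 1 fell, beside 22.9% of all genes called, with a median log2 change of 0.16 beside -0.02 for all genes. GCNT3, which makes branched core structures on mucins, rose 1.89-fold, from 159 ± 0.486 to 301 ± 12.1 CPM (SD, n = 3, edgeR adjusted p = 1.4e-10). GALNT10, an enzyme of the same family as GALNT5, rose 1.8-fold (adjusted p = 2.5e-11) and GALNT18 rose 1.75-fold (adjusted p = 0.0032). GALNT4 was the gene that fell (log2 change -0.56, adjusted p = 0.0014), and 10 of its libraries had counts that were not whole, as where reads are shared with another gene. Without IL4 replicate 1 or 3, 2 genes fell.

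With Compound A against IL4, 2 of these enzymes rose and 6 fell, beside 14.4% of all genes called, with a median of -0.02 beside 0.002. GALNT18 fell by 0.79 on the log2 scale (edgeR adjusted p = 0.0087) and B3GNT3, which extends core chains, by 0.77 (adjusted p = 0.027, lost in 4 of 23 other settings). ST6GALNAC1, a sialyltransferase of mucin chains, fell by 0.90 (adjusted p = 0.036, lost in 7 of 23) and the branching enzyme GCNT1 rose by 0.78 (adjusted p = 0.039, lost in 6 of 23). C1GALT1, which makes the core chain, also rose, by 0.41 (adjusted p = 0.0463, lost in 13 of 23). Of these, the calls of B3GNT3, ST6GALNAC1, GCNT1 and C1GALT1 were lost without IL4 replicate 1. The count of enzymes that fell depended on single libraries: it was 2 without Compound A replicate 2, 3 without Compound A replicate 3 and 1 in a fit of these groups alone. The count that rose was 0 without Compound A replicate 2 or 3 or IL4 replicate 2, and 1 with any of these left out: IL4 replicate 1, untreated replicate 2 or 3, Compound A replicate 1, control siRNA replicate 1 or any ALOX15 siRNA replicate.

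**Figure D4:**
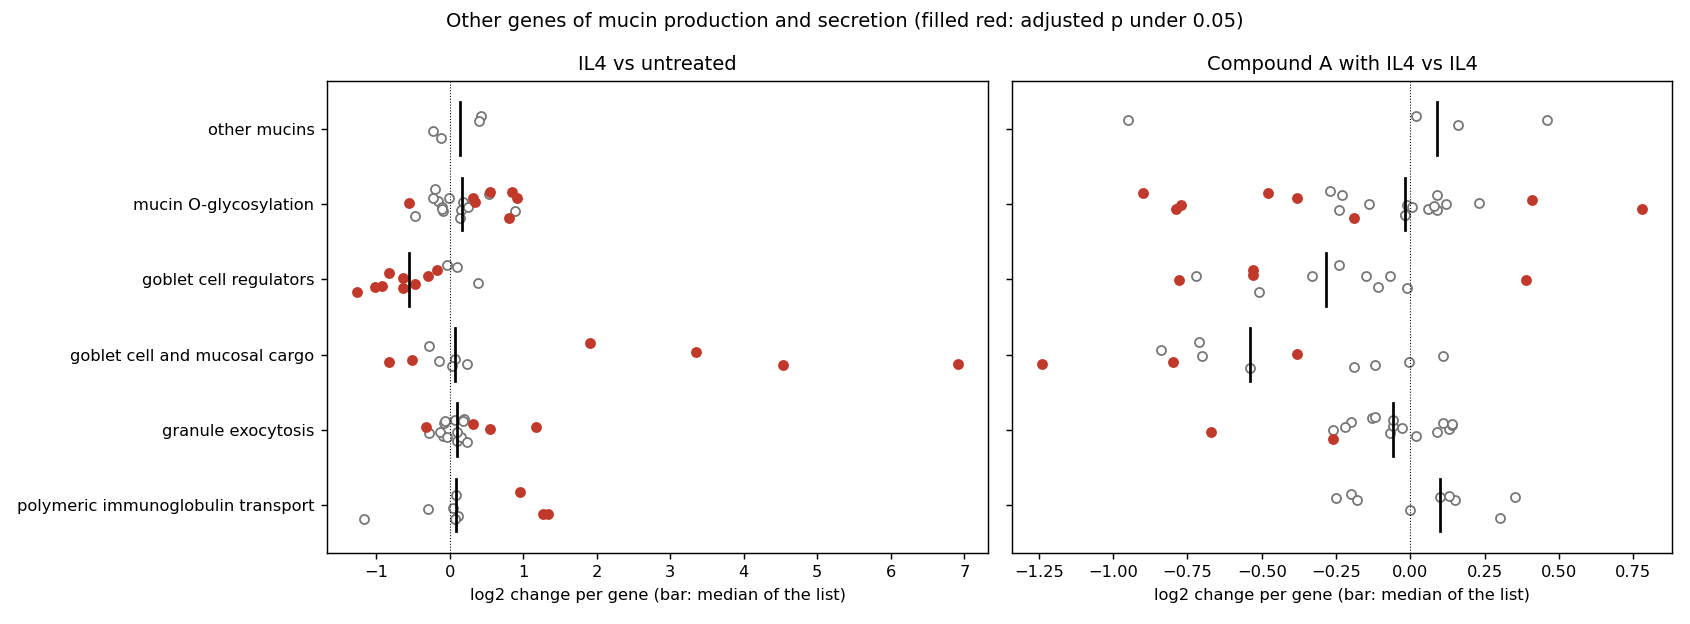
Log2 change of each tested gene (x axis) in 6 lists (y axis) for IL4 against untreated (left) and Compound A against IL4 (right), with filled red for an edgeR adjusted p under 0.05 and a bar at the list's median. On the left 9 of 12 goblet cell regulators are filled and lie to the left of 0, and 4 cargo genes lie far to the right.

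Regulators of the goblet cell programme fell with IL4. Of 12 tested 9 fell, beside 11.6% of all genes, and edgeR called none higher, with a median log2 change of -0.55 beside -0.02 for all genes. None was higher at an unadjusted p under 0.05, and DESeq2 called 8 lower and none higher. CREB3L1, a transcription factor of secretory cells, fell by 1.26 on the log2 scale, from 6.85 ± 1.09 to 2.85 ± 0.983 CPM (SD, n = 3, adjusted p = 4.8e-04). SOX9, a progenitor and secretory lineage factor, fell by 1.02 (adjusted p = 1.3e-07) and FOXA3, a goblet cell forkhead factor, by 0.92 (adjusted p = 0.0012). HES1, a NOTCH target that restrains secretory fate in the gut, fell by 0.83 (adjusted p = 0.0059), a call lost without untreated replicate 2. SPDEF, the master regulator of goblet cells, fell by 0.63 (adjusted p = 0.021), a call lost in 6 of 23 other settings, among them without untreated replicate 1 or 3 and IL4 replicate 2 or 3. Without IL4 replicate 1 the count was again 9 lower and none higher.

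Where IL4 came with control siRNA, 9 of these regulators fell against the same untreated libraries, beside 19.3% of all genes called, SPDEF from 36.5 ± 7.02 to 20.5 ± 1.74 CPM (SD, n = 3, edgeR adjusted p = 0.0042). Compound A against IL4 gave 3 lower and 1 higher, beside 14.4% of all genes. SPDEF fell by 0.78 (adjusted p = 0.019), a call lost in 6 of 23 other settings, among them without IL4 replicate 1, IL4 replicate 2, and Compound A replicate 2 or 3. KLF4 and SOX9 each fell by 0.53 (adjusted p = 0.0031 and 0.0037), and ELF3, an epithelial ETS factor, rose by 0.39 (adjusted p = 1.9e-04). None of the 4 was called in a fit of these groups alone except ELF3.

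Goblet cell and mucosal cargo was mostly silent, with 11 of 29 genes tested, but 4 rose with IL4 and 2 fell, beside 22.9% of all genes called. ITLN1 and ANO1 lay below the filter level in untreated cells and passed it only through libraries with IL4. They entered the count only because they were high there, and without them CST1 and TGM2 were the genes that rose. Both ITLN1 and ANO1 were called in each of 23 other settings, no filter among them. ITLN1, a lectin found in mucus, had 1 count in the untreated libraries together and 144 with IL4 (edgeR adjusted p = 4.8e-09). ANO1, a chloride channel of secretory epithelium, rose from 12 summed counts to 239 (adjusted p = 3.5e-09). CST1, a salivary cystatin, rose 10.2-fold (adjusted p = 8.1e-15), with counts that were not whole in 14 libraries, as where reads are shared with another gene. TGM2, a transglutaminase, rose 3.77-fold, from 206 ± 14.4 to 776 ± 108 CPM (SD, n = 3). SLPI, an antiprotease, and TCN1, a cobalamin carrier, fell by 0.52 and 0.82 (adjusted p = 0.0023 and 0.017), and the TCN1 call was lost in 5 of 23 other settings, among them without untreated replicate 3 and without IL4 replicate 1.

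With Compound A against IL4, 3 cargo genes fell, beside 8.07% of all genes, and edgeR called none higher, with a median of -0.54 beside 0.002 for all genes. None was higher at an unadjusted p under 0.05 or with DESeq2, and 5 fell without IL4 replicate 2. ANO1 fell by 1.24 on the log2 scale (adjusted p = 0.0016), CST1 by 0.80 (adjusted p = 2.5e-05) and FCGBP, a mucus protein that binds mucins, by 0.38 (adjusted p = 0.039, lost in 9 of 23 other settings, IL4 replicate 1 left out among them). CST1 was also the cargo gene that fell with ALOX15 siRNA against control siRNA, by 0.78 (adjusted p = 1.7e-04), where without IL4 replicate 1 the list gave 2 lower and 1 higher.

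In the granule exocytosis list 3 of 17 tested genes rose with IL4 and 1 fell, a share close to the 22.9% of all genes. UNC13D, a priming factor of secretory granules, rose 2.25-fold (edgeR adjusted p = 8.2e-04) and VAMP8, the SNARE of mucin granules, rose 1.46-fold (adjusted p = 0.0028). MARCKS, which links mucin granules to the cytoskeleton, fell by 0.32 on the log2 scale (adjusted p = 0.0049), and 2 genes fell without IL4 replicate 1 or control siRNA replicate 2. Control siRNA with IL4 against untreated gave 2 higher and 2 lower, beside 19.3% of all genes called. The higher count was 0 to 4 with 1 library left out. UNC13D rose there by 0.71 (edgeR adjusted p = 0.0487, lost in 13 of 23 other settings), and VAMP8 was not called (0.34, adjusted p = 0.072). Compound A against IL4 gave 2 of 17 lower, beside 8.07% of all genes. They were UNC13D, by 0.67 (edgeR adjusted p = 0.0478, lost in 12 of 23 other settings, IL4 replicate 1 left out among them), and MARCKS, by 0.26 (adjusted p = 0.036). The count was 0 without IL4 replicate 3 or any Compound A replicate, and 1 without control siRNA replicate 1 or 3 or any ALOX15 siRNA replicate.

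Of 9 tested genes in the list for polymeric immunoglobulin transport, the pathway of PIGR, 3 rose with IL4, beside 11.2% of all genes. They were transcription factors and a cytokine. None of the others was called, with log2 changes of 0.11 (RAB11A), 0.08 (RAB3B), 0.04 (EXOC4), 0.07 (FCGRT), -0.30 (YES1) and -1.16 (MAL2). IRF1 and RELB, transcription factors known to act on the PIGR gene, rose 2.41-fold and 1.94-fold (edgeR adjusted p = 4.0e-09 and 2.0e-05). Whether they had a part in the rise of PIGR was not tested. TNFSF13, a cytokine that promotes immunoglobulin A, rose 2.51-fold (edgeR adjusted p = 0.029), and its counts were not whole in 8 libraries. Its untreated mean of 1.07 CPM lay below the filter level of 1.34 CPM, so it passed only with the help of libraries with IL4. Without it, IRF1 and RELB were the genes of this list that rose. The TNFSF13 call was lost when untreated replicate 1 or 3 or IL4 replicate 1 was left out. It was also lost in a fit of these groups alone, but not without the filter. In control siRNA with IL4 against untreated, TNFSF13 was not called (log2 change 0.75, edgeR adjusted p = 0.3). In IL4 against untreated, none of the 9 was called lower by edgeR or DESeq2, and 2 were lower at an unadjusted p under 0.05. There edgeR called 1 lower without untreated replicate 1 or ALOX15 siRNA replicate 1 and 2 without IL4 replicate 3. With Compound A against IL4 edgeR and DESeq2 called none of the 9, beside 14.4% of all genes called by edgeR. At an unadjusted p under 0.05, 2 were higher. Without IL4 replicate 3 or Compound A replicate 1, edgeR called 1 higher.

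Summed levels of some cell type markers moved alongside these results. The summed level of the 4 goblet and club cell markers, of which 2 were tested, was 38.6 to 55.4 CPM in untreated libraries, 20.5 to 36.7 with IL4 and 14.4 to 22.7 with Compound A. SPDEF made up most of it and FOXA3 the rest. Both are among the regulators described above, so this sum repeats their values. The 4 fibroblast markers, of which 3 were tested, summed to 8.6 to 10.9 CPM in untreated libraries, 19.1 to 26.5 with IL4 and 8.92 to 12.2 with Compound A. COL1A1 made up most of it, with a mean of 6.59 CPM in untreated cells and 18.1 with IL4, while COL3A1 had 1.93 and 2.08 and LUM 1.28 and 1.37. Alveolar type II markers, mostly ABCA3, summed to 39.2 to 39.9 CPM in untreated libraries, 58.5 to 75.3 with IL4 and 53.3 to 62.4 with Compound A. Basal markers, mostly TP63, summed to 12.4 to 14.4, 7.97 to 8.78 and 3.08 to 6.71 CPM in the same groups. Epithelial markers summed to 5135 to 5798 CPM in untreated libraries and 8492 to 10455 with IL4. Of these, KRT8 and KRT18 had 2843 and 2363 CPM in untreated cells and 4895 and 4238 with IL4, while EPCAM had 13.9 and 9.57 and CDH1 144 and 159. The part of these markers in the results was not tested.

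Over the 15 libraries, the log2 levels of MUC5AC and MUC5B had a Pearson r of 0.784, that of AGR2 and MUC13 was 0.666, and that of MUC5B and GALNT5 was 0.0375. Among 9317 genes with a mean of at least 10 CPM, those most like the called genes were YLPM1 (0.922) and SEMA4B (0.91) for MUC5AC and ACAP3 (0.958) for GALNT5. They were KCNE4 (0.896) and ITGA1 (0.878) for AGR2 and NABP1 (0.972) and ARNTL2 (0.97) for PIGR. These values describe 15 points that share libraries and groups, and for PIGR they rest on counts of 13 or fewer.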

How the data were processed

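RNA-seq of 15 A549 libraries was analysed. The authors deposited RSEM expected counts (estimated read counts per gene, not scaled), aligned with Bowtie2 2.1.0 and quantified with RSEM 1.2.15 on hg38, per the submitters' processing notes. No source used here gives the annotation, the read filters or the strand setting, so sense and antisense reads may not be separated. Between 3.63% and 4.19% of values per library were not whole, as happens where reads are shared between genes.

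After rounding, genes with low counts were removed by edgeR's filterByExpr (at least 10 counts in a library of median size, which is 1.34 CPM, in 3 libraries). A single fit took all libraries, scaled by TMM, with 1 coefficient for each group (edgeR 4.0.16, robust quasi-likelihood test, limma 3.58.1, R 4.3.3). The Benjamini-Hochberg adjustment ran over 12795 genes, and the threshold was 0.05. The SE is the log2 change divided by the square root of F. CPM uses TMM-scaled library sizes. The common biological coefficient of variation was 0.0731. Ratios of low counts carry exact 95% intervals, which allow for counting error alone. The fit was tested on simulated data. Gene models are GENCODE's on GRCh38 and promoters RefSeq's.

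The genes and lists were chosen with earlier results of these data known. Named were all 10 genes, ALOX15, up to 4 called genes per list and comparison with the largest change and a mean of at least 1 CPM, and the 2 genes most correlated with each called gene, of which 1 is not reported here. MUC3A, MUC12, OVGP1, CD164, SLPI, TCN1, C1GALT1 and, for IL4 against untreated, SPDEF were named after their values were seen. Other settings were upper-quartile and RLE scaling, unrounded counts, no filter, a filter of 1 CPM in 3 libraries, DESeq2 1.42.0, the compared groups alone, a replicate block, and each library left out. Added after seeing the data were the MUC5AC to MUC5B ratio and the list counts with a library left out.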

Additional observations from a re-analysis of the deposited data

How the results depend on the processing

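GALNT5 in Compound A against IL4 was called under every setting. PIGR was called in both comparisons with untreated cells under every setting but the fit of the compared groups alone, where it had too few counts to be tested. Fitting the compared groups alone gave 0 called genes in IL4 against untreated (2 in the reported fit), 1 in Compound A against IL4 (3) and 2 in ALOX15 siRNA against control siRNA (0). DESeq2 gave 1 in control siRNA with IL4 against untreated (2). With each library left out in turn, the called genes numbered 1 to 3 in both comparisons with untreated cells, 1 to 3 in Compound A against IL4 and 1 to 4 in Compound A against control siRNA. The cause of these shifts was not tested. Over all genes, Compound A against IL4 gave 1846 calls in the reported fit, 1268 without IL4 replicate 1 and 397 with those groups alone. IL4 against untreated gave 2925 and 1466 with those groups alone. Compound A against control siRNA gave 675, 1638 without IL4 replicate 1 and 1768 with those groups alone, and ALOX15 siRNA against control siRNA gave 89, 272 and 325.

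A replicate block was tried because the groups share replicate numbers. Deviations of same-numbered libraries correlated at -0.128 to 0.286, over 0.1 in 8 of 30 pairs, and 7 of 15 libraries correlated best with their own number. Those of other-numbered libraries correlated at -0.237 to 0.232, over 0.1 in 7 of 60 pairs. Same-numbered pairs thus passed 0.1 more often, and these values do not settle whether the numbers mark pairs. The reported fit does not use the block. With the block 3 genes were called in Compound A against control siRNA in place of 2, MUC13 being added, and 2, 2, 0, 3 and 0 in the other comparisons as before. Over all genes the block gave 3363 calls beside 2925 in IL4 against untreated and 2508 beside 1846 in Compound A against IL4. It gave no fewer calls in any other comparison.

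Signs changed only for log2 changes that were not called. The largest of these was -0.27 for MUC2 in ALOX15 siRNA against control siRNA (SE 0.34). GALNT5 in ALOX15 siRNA against control siRNA was 0.0005 with RLE scaling, 0.0007 with DESeq2 and -0.05 to 0.07 with 1 library left out. With 1 library left out, control siRNA against IL4 gave -0.28 to 0.03 for MUC1, -0.26 to 0.10 for MUC5AC, -0.15 to 0.19 for MUC5B, -0.10 to 0.06 for GALNT5, -0.02 to 0.11 for AGR2 and -0.41 to 0.17 for PIGR. Control siRNA with IL4 against untreated gave -0.25 to 0.24 for MUC2, -0.0007 to 0.09 for MUC13 and -0.13 to 0.02 for AGR2. Compound A against IL4 gave -0.07 to 0.40 for MUC2, -0.18 to 0.16 for MUC5B and -0.50 to 0.08 for PIGR, and against control siRNA it gave -0.42 to 0.06, -0.14 to 0.08 and -0.20 to 0.03 for the same genes. ALOX15 siRNA against control siRNA gave -0.002 to 0.35 for MUC1 and -0.47 to 0.02 for MUC2. Depth limits MUC16, MUC20, PIGR, MUC2 and MUC1, whose highest counts in a library were 6, 12, 13, 21 and 37.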

Other observations

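Control siRNA with IL4 against untreated cells shares the untreated libraries with the IL4 comparison. Among the transport and secretion genes it gave some calls that IL4 alone did not. It lacked others, VAMP8 and TNFSF13 among them. MAL2, a membrane protein of transcytosis, fell from 84 summed counts to 18 (log2 change -1.83, SE 0.56, edgeR adjusted p = 0.029), a call lost without untreated replicate 2 or 3 or control siRNA replicate 1 or 3. With IL4 alone its log2 change was -1.16 (adjusted p = 0.1). RAB3D, a small GTPase of secretory granules, fell from 32.5 ± 1.76 to 23.1 ± 2.38 CPM (SD, n = 3, log2 change -0.49, edgeR adjusted p = 0.002), and with IL4 alone its log2 change was -0.28 (adjusted p = 0.0532). Neither gene was called in the direct comparison of control siRNA with IL4 against IL4 alone. There MAL2 had a log2 change of -0.66 (SE 0.66, edgeR adjusted p = 0.91) and RAB3D one of -0.21 (SE 0.11, adjusted p = 0.9). GCNT3 and GALNT10 rose with control siRNA by 0.83 and 0.82 on the log2 scale (edgeR adjusted p = 8.1e-10 and 5.5e-11). AGR3, the close relative of AGR2, had 19 counts over all libraries.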
